A study of Mus musculus with 4 samples.

Results

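The peaks described here are the promoter peaks of Prdm6 that lay wholly downstream of a transcription start site (TSS). They are the peaks which the deposited annotation calls promoter and whose nearest edge lay more than 0 and at most 3000 bp into the transcribed side of the TSS of the assigned transcript. There were 1139 such peaks of 13977 in all, and they were chosen by position alone, without use of any binding value. They were set beside 909 promoter peaks that lay upstream of the TSS, 928 peaks that overlapped it and 1765 peaks annotated to intron 1, which lay further from a TSS.

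The data were ChIP-seq libraries of primary mouse outflow tract SMCs, isolated from E17.5 embryos and infected with a lentivirus that expressed FLAG-tagged Prdm6. The study's methods describe such cells as taken from embryos with floxed Prdm6 alleles at another embryonic age. Which account holds for these libraries is not known. All 4 samples came from cells that carried this lentivirus. The PRDM6 ChIP group (n = 2) was precipitated with an anti-FLAG antibody after fixation, micrococcal nuclease digestion and sonication, and the Input group (n = 2) was not precipitated. The binding measured is therefore that of overexpressed protein, cells without the lentivirus were not analysed here, and no value of the Input group was at hand to set beside the peaks. The sources describe the immunoprecipitations both as made from a single sample and as replicates of the experiment, so the p-values may not reach beyond 1 culture. Every peak in the list was found in both. The list gives the replicates by order alone, hence first-listed and second-listed replicate in the text.

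Prdm6 belongs to the PR domain family of zinc finger proteins and is expressed mainly in SMCs. The stretch just downstream of a TSS holds the first exon and the beginning of the first intron, where many genes carry regulatory elements of their own. Promoters of widely expressed and developmental genes often lie in CpG islands, which extend past the TSS, whereas elements bound by AP-1 (dimers of Jun, Fos and ATF proteins) or by TEAD factors (the DNA-binding partners of YAP and TAZ) are common in enhancers of fibroblasts and SMCs.

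The sequences that follow come from inside downstream peaks and show the kinds of sequence found near their summits. Each is the plus strand of the GRCm38 (mm10) genome, 101 bases long, and they are the strongest peaks of each kind among those eligible for printing by the rule given with the methods. The first set is centred on an AP-1 motif, searched on both strands as TGACTCA or TGAGTCA, which is in capitals. It comes from 4930543E12Rik (a lincRNA gene, chr7:113140164-113140264), Gm19276 (a lincRNA gene, chr15:10816526-10816626) and Nek6 (a mitotic kinase, chr2:38513009-38513109). In the last 2 the motif lay 85 bp from the summit, which is outside the printed bases, and in the first it lay 12 bp away.

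4930543E12Rik: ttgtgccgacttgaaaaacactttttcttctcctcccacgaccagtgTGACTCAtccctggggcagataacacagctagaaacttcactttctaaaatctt
Gm19276: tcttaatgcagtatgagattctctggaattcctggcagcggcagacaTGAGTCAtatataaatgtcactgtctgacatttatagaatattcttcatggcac
Nek6: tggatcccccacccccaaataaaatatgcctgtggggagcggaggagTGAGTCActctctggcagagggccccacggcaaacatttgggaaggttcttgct

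The second set is centred on a TEAD motif, searched on both strands as AGGAATGC, AGGAATGT, GGGAATGC or GGGAATGT, which is in capitals. It comes from Ston1 (an endocytic adaptor, chr17:88630741-88630841) and from the peak downstream of Mir3109 (chr9:69458318-69458418).

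Ston1: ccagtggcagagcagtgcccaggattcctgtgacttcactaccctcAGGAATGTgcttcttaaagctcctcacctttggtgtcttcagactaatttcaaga
Mir3109: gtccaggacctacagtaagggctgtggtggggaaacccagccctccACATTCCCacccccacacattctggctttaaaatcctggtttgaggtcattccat

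The third set is centred on the summit of peaks with a CpG-rich window and neither motif, and every CpG is in capitals. It comes from Ptch1 (the Hedgehog receptor, chr13:63563072-63563172), with 13 CpGs and a GC content of 79.2%, and from Hoxa5 (a homeodomain factor, chr6:52203171-52203271), with 5 CpGs and a GC content of 55.4%.

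Ptch1: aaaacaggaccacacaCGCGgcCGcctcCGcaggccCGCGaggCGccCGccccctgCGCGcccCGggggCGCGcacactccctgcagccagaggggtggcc
Hoxa5: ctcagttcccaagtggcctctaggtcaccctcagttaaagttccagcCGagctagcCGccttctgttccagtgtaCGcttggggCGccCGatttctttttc

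The peaks crowded towards the TSS. Of the 1139, 350 (30.7%) began within 500 bp of it and 608 (53.4%) within 1000 bp, and the number fell to 103 between 2501 and 3000 bp. In the first 500 bp the downstream and upstream sides held 350 and 356 peaks. In each of the other 5 bins of 500 bp there were more peaks downstream than upstream, 258 against 167 in the next bin and 103 against 67 in the last. The closest to the TSS were at Amotl1 and Ptpa, both 1 bp away, and at Tbx18, 2 bp away. Just inside the limit of 3000 bp lay Met at 2984 bp, Gm20544 at 2992 bp and Pdlim5 at 2994 bp, with −log10 p-values of 3.71, 14.9 and 4.32. Just outside it lay peaks of Nostrin at 3008 bp, Supt20 at 3009 bp and Rock2 at 3013 bp, with values of 6.15, 3.19 and 5.42.

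**Figure D1:**
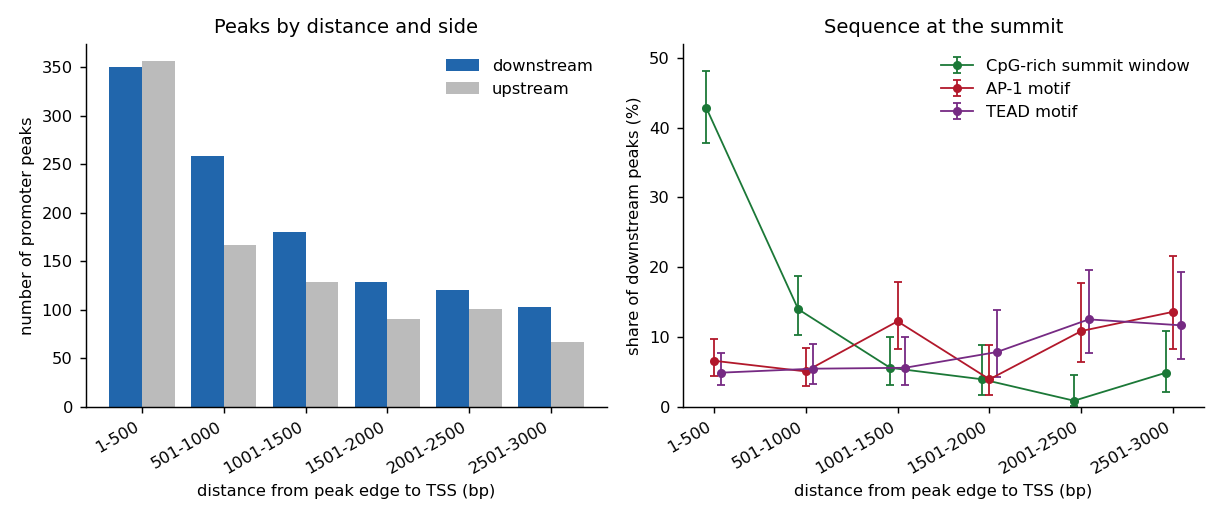
Left, number of promoter peaks in bins of 500 bp of distance between the peak edge and the TSS, downstream (blue) and upstream (grey). Right, share of the downstream peaks in each bin (percent, with 95% Wilson intervals) with a CpG-rich summit window, with AP-1 and with TEAD motifs; the CpG-rich share fell from 42.9% in the first bin to 4.85% in the last.

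Most of the peaks lay in a first intron of the transcript they were assigned to. Of the 1132 peaks whose transcript was found in GENCODE M21, the summit of 819 (72.3%) was in intron 1 of the assigned transcript, 85 (7.51%) in a later intron, 50 in a coding exon, 47 in a 5′ UTR, 44 in an exon of a non-coding transcript and 17 in a 3′ UTR. The summits of 70 lay past the end of a short transcript. Placed instead by all transcripts of the GENCODE basic set over the summit, with exons taken first and a first intron before a later one, 702 of the 1139 (61.6%) were in a first intron and 211 (18.5%) in a later one. The assigned transcript was a protein-coding one in 637 cases (56.3%), a retained-intron transcript in 160, another processed transcript without a reading frame in 155, a lincRNA in 65 and a miRNA in 21. The assigned TSS was mostly not the most 5′ one of its gene: in 844 peaks (74.6%) it lay inside it, in 428 (37.8%) by more than 1000 bp and in 366 (32.3%) by more than 3 kb, the last with a median of 47302 bp from the most 5′ TSS.

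Strength is given as the −log10 p-value of MACS2, which the list holds for each replicate and, as the smaller of both, for the matched peak. The median of the 1139 matched values was 5.10 (quartiles 4.32 and 6.61, range 3.03 to 25.5), with medians of 6.15 (first-listed) and 6.21 (second-listed) by replicate. Fewer of the downstream peaks were strong than of the other classes, by differences that depended in part on the replicate read and on the peaks kept. Of the downstream peaks, 471 (41.4%, 95% Wilson interval 38.5 to 44.2) were above the median of the whole list, which 49.7% of all peaks exceed. This share was 46.1% upstream of the TSS, 47.4% over the TSS and 50.3% in intron 1. The difference was −4.74 percentage points against upstream peaks (interval −9.05 to −0.42, adjusted p = 0.0350), −6.06 against peaks over the TSS (−10.3 to −1.76, adjusted p = 0.00987) and −8.96 against intron 1 (−12.6 to −5.25, adjusted p = 6.95e-06), by Fisher's exact test, two-sided, over 3 comparisons. These tests count peaks, which are not replicates of a condition. In the first-listed replicate alone the differences from upstream peaks and from peaks over the TSS were −3.30 and −2.52 points, and neither passed the test. In the second-listed replicate alone they were −6.01 and −10.6, and both passed. With fewer peaks, among those whose p-values rest on the genome-wide background estimate of MACS2, they were −5.78 and −7.27 and did not pass, nor did the difference from upstream peaks within 1 kb (−5.05) or in windows not rich in CpG (−4.75). With only the strongest peak of each gene, a setting that selects on strength itself, both differences were smaller, −2.57 and −2.28, and did not pass (Fisher's exact test, adjusted p = 0.342 for both).

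Across the 1139 peaks, Spearman's rank correlation between them was 0.23, against 0.26 over all peaks, as a description over peaks that share libraries. The first-listed replicate had the higher value in 543 and the second-listed in 596, and in 304 peaks they differed by 3 or more on the log10 scale. The IDR procedure, which scores how well the ranks of a peak agree between replicates, gave the lowest score of the list to 587 peaks (51.5%), where 41.4% of all peaks had it. A global IDR of at most 0.05 was reached by 22 (1.93%, interval 1.28 to 2.91), where the background over all peaks was 3.33%. It was reached by 2.42% of upstream peaks, 2.69% of peaks over the TSS and 3.29% of intron 1 peaks, and none of these 3 differences passed Fisher's exact test (adjusted p = 0.448, 0.448 and 0.108).

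**Figure D2:**
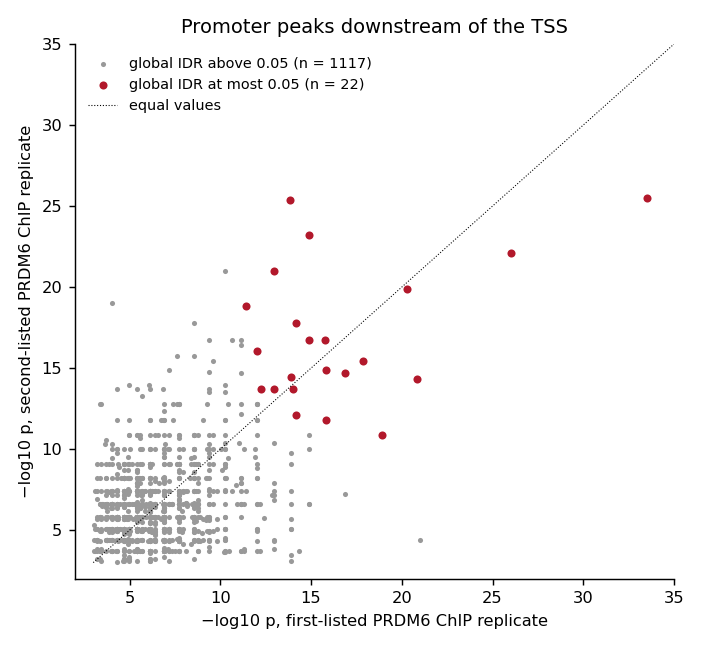
The −log10 p-value of each of the 1139 downstream peaks in both PRDM6 ChIP replicates (x, first-listed; y, second-listed). The 22 peaks that reached a global IDR of 0.05 (red) were all above 10 in both replicates, and the dotted line marks equal values.

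The 12 strongest peaks reached matched values between 13.9 and 25.5. The strongest was at 4930543E12Rik, an uncharacterized lincRNA gene (chr7:113139691-113140770), with 33.5 in the first-listed and 25.5 in the second-listed replicate, 1245 bp from the TSS and with an AP-1 motif at its summit. The peak of Fam83f, a member of a family of kinase-anchoring proteins (chr15:80673398-80674558), had 26.0 and 22.1. That of Foxp2, a forkhead transcription factor (chr6:15256911-15258311), had 20.3 and 19.9, behind a TSS 352934 bp inside the gene. These 3 held the highest IDR score of 1000.

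Gpr39, a zinc-sensing receptor (chr1:125678988-125680354), had 15.8 and 16.7, and the lincRNA gene Gm19276 (chr15:10816268-10817142), which carried an AP-1 motif, had 17.9 and 15.5. Disp1, which releases Hedgehog ligands from the cells that make them (chr1:183144192-183145490), had 15.8 and 14.9. Frmd6, an upstream member of the Hippo pathway (chr12:70825917-70827867), had 16.8 and 14.7. All of these lay in introns, with summits 1628 to 2772 bp from the TSS.

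Atf3, a stress-induced factor of the ATF and AP-1 families (chr1:191215609-191216749), had 20.8 and 14.3, so that the replicates stood apart there. Prickle2, a planar cell polarity gene (chr6:92532617-92532949), had 13.9 and 14.4, behind a TSS 171294 bp inside the gene. The uncharacterized genes Gm973 (chr1:59609561-59610936) and Gm20544 (chr18:75363132-75364096) shared a first-listed value of 14.9, beside 16.7 and 23.2 in the second-listed replicate. The Gm973 peak lay behind a TSS 90552 bp inside the gene.

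The remaining peaks that reached this IDR limit included those of Nek6 (14.0 and 13.7), Lima1, an actin-bundling protein (12.95 and 21.0), Runx1t1, a transcriptional corepressor (12.95 and 13.7), and Utrn, the autosomal homologue of dystrophin (12.2 and 13.7). Anxa7, an annexin, had 12.03 and 16.04, and the mucin gene Muc15 had 15.8 and 11.8. The antisense gene 4930511M06Rik had 11.4 and 18.8. Cd47, the signal that restrains phagocytosis, had 18.9 and 10.9. Over the 22 peaks, 16 summits lay in intron 1, 10 belonged to a TSS more than 3 kb inside the gene, 4 held an AP-1 motif and none a TEAD motif, which allows a TEAD share of up to 13.6% (3 counts of 22, counting error only).

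Prdm6 itself held 4 of the downstream peaks, 3 of them among the 22. The peak at chr18:53464551-53465118 had values of 13.8 and 25.4, that at chr18:53473445-53473718 had 14.2 and 12.1, and that at chr18:53552058-53552367 had 14.2 and 17.8. Each of these coincided with a coding exon of the gene: coding sequence made up 97.0%, 100% and 100% of their widths of 568, 274 and 310 bp, and they covered 92.6%, 89.0% and 90.4% of the exons. The fourth, at chr18:53537867-53539206, held no coding sequence and had 7.71 and 4.39. The lentivirus in all samples expressed Prdm6, and the part of its sequence in these peaks was not tested. Without the 4 peaks of Prdm6, 19 of 1135 (1.67%) reached a global IDR of 0.05, and the shares of AP-1 and TEAD motifs were 7.93% and 6.87%.

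AP-1 and TEAD motifs were more frequent at the summits of the downstream peaks than beside them. Within 100 bp of the summit, 90 peaks (7.90%, interval 6.47 to 9.61) held an AP-1 motif, against 36 (3.16%) in flanks centred 1000 bp away that held as many positions. The ratio was 2.50, with 87 peaks that held it only at the summit and 33 only in the flanks (exact McNemar test, adjusted p = 2.17e-06 over 5 motifs). A TEAD motif was held by 78 (6.85%, interval 5.52 to 8.46), against 25 (2.19%) in the flanks, a ratio of 3.12 (77 against 24 peaks, exact McNemar test, adjusted p = 5.90e-07). Against flanks 3000 bp away, the TEAD ratio was 1.73 (45 flanks, adjusted p = 0.00448 by the same exact test) and the AP-1 ratio 2.25. Both motifs together were found in 8 peaks, and 979 held neither. As shares of the whole list, 14.3% of all peaks had an AP-1 and 7.45% a TEAD motif at the summit. A match of letters describes a sequence and does not show that a factor was bound.

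Of the other 3 sequences, none passed the test against flanks 1000 bp away. TTTCAT or TTTCCT, the 6-base reading used here of a sequence with 1 variable base that has been linked to Prdm6, was within 100 bp of 36.0% of summits and in 38.2% of flanks (exact McNemar test, adjusted p = 0.405). Read with 5 bases, as TTTCT or TTTAT, a reading added after the data were seen, the sequence was within 100 bp of 75.2% of summits and in 80.5% of flanks, a ratio of 0.93 (exact McNemar test, p = 0.00175, not adjusted). The CArG box, the motif of serum response factor, was in 1.93% and 1.32% (exact test, adjusted p = 0.405). The GC box GGGCGG, a motif of Sp factors, was in 13.2% and 13.6% (exact test, adjusted p = 0.794), but its comparison depended on where the flanks lay: against flanks 3000 bp away the ratio was 2.17 (adjusted p = 2.55e-08).

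**Figure D3:**
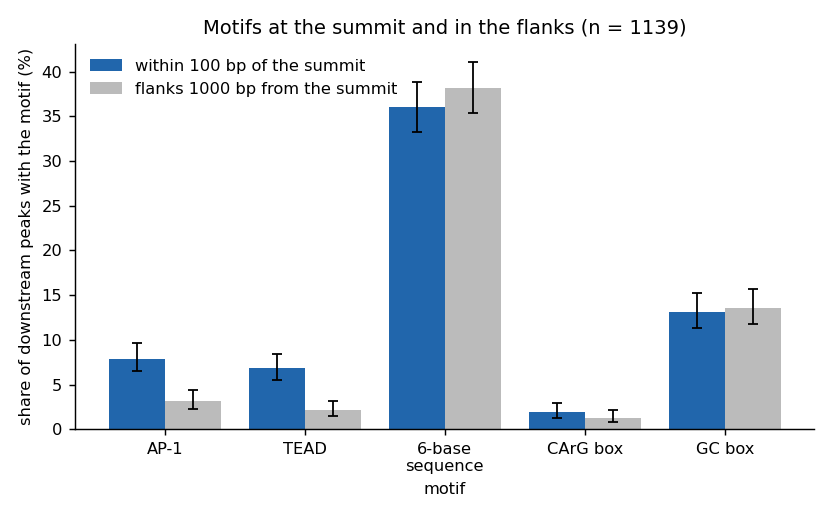
Share of the 1139 downstream peaks (percent, with 95% Wilson intervals) that held each motif within 100 bp of the summit (blue) and in flanks centred 1000 bp away (grey). The 6-base sequence is TTTCAT or TTTCCT; AP-1 and TEAD were higher at the summit, 7.90% against 3.16% and 6.85% against 2.19%.

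The downstream peaks held AP-1 less often than intron 1 peaks and TEAD more often than peaks over the TSS. The AP-1 share was 14.8% in intron 1, a difference of −6.94 percentage points (interval −9.19 to −4.61, Fisher's exact test, adjusted p = 7.97e-08 over 6 comparisons). It was 10.3% upstream (difference −2.44, interval −5.02 to 0.056, exact test, adjusted p = 0.124) and 6.90% over the TSS (difference 1.01, interval −1.30 to 3.25, adjusted p = 0.481), neither of which passed. The TEAD share was higher than the 4.20% of peaks over the TSS by 2.65 points (interval 0.65 to 4.61, exact test, adjusted p = 0.0292). By the same exact test it was not told apart from 7.59% upstream (difference −0.74, interval −3.06 to 1.496, adjusted p = 0.547) or 8.56% in intron 1 (difference −1.71, interval −3.63 to 0.32, adjusted p = 0.157). The TEAD difference no longer passed with peaks above the median strength (2.58 points), with a window of 50 bp (0.74), in windows not rich in CpG (1.22) or within 1 kb of the TSS (0.90).

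CpG content set the downstream peaks apart most clearly from peaks over the TSS and in intron 1. A window was called CpG-rich where the 201 bases around the summit had at least 50% GC and a ratio of observed to expected CpG of at least 0.6. This held for 207 downstream peaks (18.2%, interval 16.04 to 20.5), where the background over all peaks was 6.47%. Over the TSS it held for 48.6%, a difference of −30.4 percentage points (interval −34.3 to −26.5, Fisher's exact test, adjusted p = 1.30e-49), and in intron 1 for 0.963%, a difference of 17.2 points (adjusted p = 8.78e-68). The downstream and upstream peaks, at 18.2% and 16.1%, were not told apart over 3 kb (difference 2.11, interval −1.20 to 5.36, exact test, adjusted p = 0.217). Within 1 kb of the TSS the shares were 30.6% and 24.5% (difference 6.12, exact test, adjusted p = 0.0236).

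**Figure D4:**
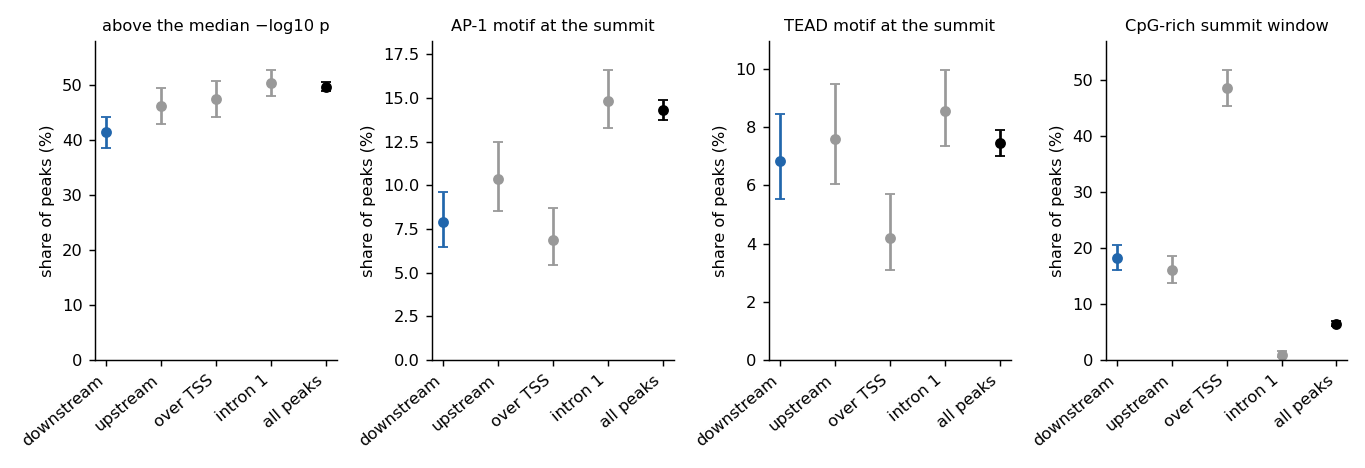
Share of peaks (percent, with 95% Wilson intervals) in 4 classes and in the whole list above the median −log10 p of the list, with AP-1 motifs at the summit, with TEAD motifs there, and with a CpG-rich summit window. The downstream peaks (blue) stood at 41.4%, 7.90%, 6.85% and 18.2%.

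The downstream peaks changed in kind with distance. Those within 1 kb of the TSS had a CpG-rich window in 30.6% of cases and those further away in 3.95%, a difference of 26.6 percentage points (interval 22.6 to 30.6, Fisher's exact test, adjusted p = 1.52e-34). By 500 bp bins the share fell from 42.9% to 14.0%, 5.56%, 3.91%, 0.833% and 4.85%. The AP-1 share was 5.92% near the TSS and 10.2% further away (difference −4.25, interval −7.54 to −1.09, exact test, adjusted p = 0.0125), and above the list median in strength were 38.2% and 45.0% (difference −6.85, interval −12.5 to −1.12, adjusted p = 0.0219). Because distance runs from the peak edge, a wide peak near the TSS counts as over it (median width 705 bp there, 567 bp downstream). The bearing of this rule on the difference in strength was not tested. The AP-1 share by bin did not move in 1 direction, with 6.57%, 5.04%, 12.2%, 3.91%, 10.8% and 13.6%, while TEAD motifs ran from 4.86% in the first bin to 12.5% and 11.7% in the last ones, which was not tested. With the limit at 500 bp in place of 1 kb, the difference in AP-1 was −1.92 points and did not pass (exact test, adjusted p = 0.286).

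Strong and weak downstream peaks also differed in sequence. Of the 471 above the list median, 10.4% held AP-1, against 6.14% of the other 668 (difference 4.27, interval 1.05 to 7.73, Fisher's exact test, adjusted p = 0.0101). The difference was 7.33 points by the second-listed replicate alone and 9.03 with strong peaks taken from the upper quartile of the list. CpG-rich windows ran the other way, with 14.2% of the strong and 21.0% of the weak peaks (difference −6.73, interval −11.1 to −2.22, exact test, adjusted p = 0.00772), but the second-listed replicate alone gave −4.53 and did not pass (adjusted p = 0.0568). The 207 CpG-rich peaks and the 932 others had the same median matched value of 5.10, while their medians in the first-listed replicate were 5.69 and 6.21. Only 5 CpG-rich peaks held AP-1 and 2 reached a global IDR of 0.05, both of them at coding exons of Prdm6.

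Start sites inside genes had peaks of another composition than those at gene starts, a split made after the data were seen in which a gene start is any TSS up to 3 kb from the most 5′ one. The 366 peaks at an internal TSS held AP-1 in 12.8% of cases (interval 9.80 to 16.7) and the 766 at a gene start in 5.61% (4.19 to 7.48), a difference of 7.23 percentage points (3.66 to 11.3, Fisher's exact test, adjusted p = 1.05e-04 over 4 comparisons). CpG-rich windows were found in 6.01% and 23.9%, a difference of −17.9 points (−21.6 to −13.8, exact test, adjusted p = 2.02e-14). TEAD motifs, at 7.65% and 6.53%, were not told apart (exact test, adjusted p = 0.531), nor was strength, with 45.1% and 39.8% above the list median (adjusted p = 0.126). Among peaks more than 1 kb from the TSS, AP-1 was in 16.1% at internal TSSs and 6.67% at gene starts (exact test, adjusted p = 0.00189), and a CpG-rich window was found at 0 of 199 internal ones, which allows a share of up to 1.51%, against 6.36% at gene starts. The transcripts at internal start sites were protein-coding in 154 of 366 cases (42.1%), against 483 of 766 (63.1%) at gene starts.

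**Figure D5:**
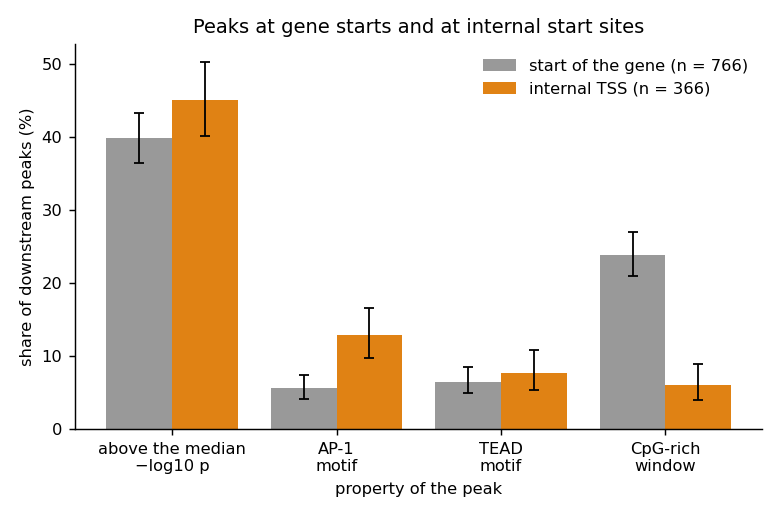
Share of downstream peaks (percent, with 95% Wilson intervals) with each property, for 766 peaks at the start of the gene (grey) and 366 at a TSS more than 3 kb inside it (orange). AP-1 stood at 5.61% and 12.8%, and CpG-rich windows at 23.9% and 6.01%.

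The 1139 peaks were assigned to 927 genes, of which 751 had 1 such peak, 142 had 2 and 34 had 3 or more. Of these genes, 249 (26.9%) also had a peak over a TSS, 174 (18.8%) an upstream promoter peak and 409 (44.1%) an intron peak, while 247 (26.6%) had no other peak in the list. A peak over the TSS was found in 24.4% of the 753 genes with downstream but no upstream peaks and in 110 of the 611 genes with upstream but no downstream peaks (difference 6.43 percentage points, interval 2.06 to 10.7, Fisher's exact test, p = 0.00439). Within 1 kb of the TSS this difference was 4.44 points and did not pass (exact test, p = 0.141).

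In 17 of the 34 genes with 3 or more peaks, all lay behind the TSS of a single transcript. The 3 peaks of Foxc1, a forkhead factor of the outflow tract and its neural crest, ran from the coding exon into the 3′ UTR of this gene of 1 exon, with matched values between 5.69 and 6.15, and 2 of them were CpG-rich. Those of its relative Foxc2 had 3.10 to 6.15, and all 3 were CpG-rich. Trib2, a pseudokinase, had 5.04 to 9.57. Disp1 had 14.9, 4.97 and 4.39, all behind an internal TSS 74061 bp from the most 5′ one, and Ston1 had 11.8, 5.53 and 4.98 behind another at 29680 bp.

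In the other 17 the peaks were spread over several start sites. Bdnf, a neurotrophin gene with many alternative first exons, had 4 peaks over 16308 bp behind 3 of its transcripts, with 4.39 to 6.92. The widest of them (chr2:109678802-109681453) had 21.0 in the first-listed and 4.39 in the second-listed replicate, so that the replicates stood far apart there. Utrn had peaks behind 3 transcripts, of which the one 55791 bp inside the gene had 12.2 and the others 5.21 and 4.04. Col12a1, a fibril-associated collagen, had 12.03 behind a TSS 105861 bp inside the gene and 4.39 and 4.33 at its start. Foxp1, a forkhead factor, had 7.42 and 4.32 at its start and 7.14 at 494730 bp, and Trio had 9.43, 6.74 and 3.19 over 239831 bp.

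Lists of genes that bear on SMCs of the outflow tract were read against the whole genome, where 3.81% of 21627 protein-coding genes had a downstream peak. The share of genes with a peak of any class ran from 8.33% (cardiomyocyte markers) to 87.2% (growth factor genes). Among protein-coding genes with any peak, 820 had a downstream peak and 3559 did not. A list share above 3.81% thus does not show a preference for downstream peaks, which was not tested. Of SMC contractile genes, 2 of 27 (7.41%) had a downstream peak. These were Cald1 with 7.14, which encodes the actin-binding protein caldesmon, and Vcl with 4.71, which encodes vinculin. Serum response factor, myocardin and their partners had 4 of 16 genes, and the highest value was 7.61 at Mrtfa, the actin-sensing coactivator. The Mrtfa peak lay behind a TSS 85674 bp inside the gene.

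Signalling genes gave 11 of 36 for TGF-β and BMP (30.6%), where the receptors Bmpr1a and Bmpr2 were highest with 6.61 each and the median of 15 peaks was 4.71. Growth factor genes gave 9 of 39, led by Nrg1, an ErbB ligand, with 6.92, behind a TSS 1.03e+06 bp inside the gene. The TEAD, YAP and Hippo list gave 6 of 24, led by Vgll3, a TEAD cofactor, with 6.21, and Tead1 with 5.69. Notch genes gave 3 of 23, led by the sheddase Adam10 with 8.52. Of the AP-1 factors, 3 of 12 had a peak: Atf3 with 14.3, Jun with 6.61 and Fosl2 with 3.61.

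Outflow tract and neural crest factors gave 13 of 43 (30.2%) with 25 peaks, the most of any list. Zeb2, a repressor active in neural crest, was highest with 9.37, followed by Sox9 and Nr2f2 with 6.92 each. The Zeb2 and Nr2f2 peaks lay behind TSSs 7319 and 6814 bp inside their genes. Of these 25 peaks, 13 were CpG-rich, against 18.2% of all downstream peaks, and their median was 5.10. Of the genes of the ductus arteriosus, the fetal vessel that closes after birth, 4 of 20 had a peak, and 4 of these 9 peaks were those of Prdm6, which led the list with 14.2. Ptgs1, a cyclooxygenase, had 6.15 behind a TSS 12049 bp inside the gene. Matrix genes gave 9 of 50, led by Col12a1 with 12.03 and Lama2, a laminin chain, with 7.42. The Lama2 peak lay behind a TSS 631244 bp inside the gene. Integrin and adhesion genes gave 9 of 35, led by Cdh2, N-cadherin, with 8.75.

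Histone modifiers gave 3 of 43 (6.98%), with Ehmt1, an H3K9 methyltransferase, at 6.61, and channel genes gave 3 of 30, with Itpr1, the inositol trisphosphate receptor, at 7.42. The Ehmt1 and Itpr1 peaks lay behind TSSs 27911 and 305636 bp inside their genes. Cell cycle genes gave 4 of 32, led by Myc with 6.15. None of 14 endothelial and none of 12 cardiomyocyte markers had a downstream peak, while 6 and 1 of them had a peak elsewhere. With a downstream peak in only 3.81% of all protein-coding genes, lists as short as these can readily hold none. Their counts therefore do not show that downstream peaks avoid such markers, which was not tested. All the gene lists are read as counts only. Genes with a downstream peak had a median of 5.5 annotated transcripts, against 5 for genes with other peaks and 3 for all protein-coding genes. The bearing of gene length and transcript number on the list counts was not tested.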

How the data were processed

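Sources for the processing were the labels, the submitters' processing notes and the study's methods. The authors aligned the reads to mm10 with BWA, used MACS2 to call the peaks of every PRDM6 ChIP replicate relative to Input, matched them by IDR and annotated them; tool versions are not given in the sources used here. The deposited list held a scaled IDR score, where 540 is a global IDR of 0.05, and −log10 p-values per replicate and for the matched peak, which was the smaller of both in all 13977 peaks. Its signal and q-value columns held a placeholder, so tests planned on signal used −log10 p-values. The annotation column named as a q-value equalled the second-listed −log10 p-value in all 13977 peaks. Of the deposited annotation, positions, distances, transcripts and gene names were used. No value belonged to a single labelled sample, and read totals are unknown.

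Distances were those of the annotation, from the nearest peak edge. Summit windows of 201 bases came from GRCm38, and gene models from GENCODE M21. Classes were compared by Fisher's exact test and summits with flanks by an exact McNemar test, both two-sided, with Benjamini-Hochberg adjustment within each family of tests at 0.05. Intervals are 95% Wilson intervals, or Newcombe intervals for differences, and cover counting error over peaks only. The p-values follow a Poisson series of mean 2.61 fragments in the first-listed and 2.39 in the second-listed replicate, the genome-wide background, within a tolerance of 0.0002. Of the downstream peaks 55.6% and 64.9% lay on that series, against 58.3% and 63.5% of all peaks; the background behind the others was not measured. The tests and the search for the series were checked on simulated data.

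Peaks were named if they were among the 12 strongest, had a global IDR of at most 0.05, belonged to a gene with 3 or more (a selection) or were the highest of a gene list; Vcl, Tead1, Jun, Fosl2, Sox9, Nr2f2, Ptgs1 and Lama2 were named from their lists after their values were seen; printed sequences are the 3 strongest with AP-1, the 2 strongest with TEAD and the 2 strongest CpG-rich ones with neither, off chromosome 18 and outside annotated UTRs; values at the edges of the 3000 bp limit are given as well. The members, lists and tests were chosen with earlier results of these data known, and 1 of the lists is not reported here. The comparison of internal start sites, the 5-base reading of the Prdm6 sequence and the alternatives on CpG-poor windows and on the genome-wide background were added after seeing these data. Alternatives were each replicate alone, the strongest peak of each gene, 1 kb limits, summit distances, IDR limits, windows, flanks and CpG limits. Computations ran in Python 3.11.15 with SciPy 1.17.1, pandas 2.3.3, NumPy 2.4.6, pysam and matplotlib 3.10.9.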

Additional observations from a re-analysis of the deposited data

How the results depend on the processing

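Of 116 alternative values of 30 results, 87 kept their direction and their side of the threshold. Differences are in percentage points and the rest are ratios of summit to flanks. Each replicate alone gave −6.01 to −3.30 for strength against upstream peaks, −10.6 to −2.52 against peaks over the TSS and −9.91 or −10.4 against intron 1. For CpG-rich windows in strong against weak peaks they gave −9.67 and −4.53, the latter in the second-listed replicate (exact test, adjusted p = 0.0568). Keeping the strongest peak of each gene selects on strength, and it kept 927 of 1139 downstream, 785 of 909 upstream, 853 of 928 TSS and 1043 of 1765 intron 1 peaks, so its values for strength and IDR are given as values and test no difference between classes. Strength against upstream peaks no longer passed in the first-listed replicate alone (−3.30), which keeps every peak. Nor did it pass with the strongest peak of each gene (−2.57), within 1 kb (−5.05), on the genome-wide background (−5.78) or in CpG-poor windows (−4.75). Against peaks over the TSS it was lost in the first-listed replicate alone (−2.52), with the strongest peak of each gene (−2.28) and on the genome-wide background (−7.27). With all peaks these differences were −4.74 and −6.06, so apart from the strongest-peak setting they were no smaller in size where the call was lost with fewer peaks. With the strongest peak of each gene, the difference from intron 1 was −16.2 in strength and −3.40 in the share at a global IDR of 0.05, which all 58 such intron 1 peaks entered, and within 1 kb the difference from upstream peaks turned to 0.14. Within the 22 peaks at that IDR the ratios were 4 for AP-1 (no longer called), 1.43 for TTTCAT or TTTCCT and 2 for the GC box. TEAD and the CArG box gave no ratio because no flank held them. The GC box turned to 1.01 with the strongest peak of each gene, 1.01 with 50 bp windows and 2.17 with flanks 3000 bp away. The 5-base reading of the Prdm6 sequence passed at 0.93 (exact test, p = 0.00175). TEAD against upstream peaks turned to 1.33 above the median strength. TEAD against peaks over the TSS was lost above the median strength (2.58), within 1 kb (0.90), with 50 bp windows (0.74) and in CpG-poor windows (1.22), and against intron 1 it passed within 1 kb (−3.46). AP-1 against peaks over the TSS turned to −0.98 within 1 kb and −1.36 in CpG-poor windows. CpG-rich windows against upstream peaks passed within 1 kb (6.12). AP-1 near against far was lost at 500 bp (−1.92), and the share of genes with a peak over the TSS by side was lost within 1 kb (4.44). The causes of these changes were not tested, except that several of these settings keep fewer peaks. Peaks over the TSS have no side, so summit distances gave no value for them. No paired analysis was possible because the list holds no value of the Input group.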
